A study of Mus musculus with 21 samples.

Results

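The genes described here are 10 genes of cytotoxic lymphocytes and natural killer (NK) cells, listed by symbol: Gzma, Gzmb, Gzmk, Prf1, Nkg7, Klrk1, Klrd1, Ncr1, Ifng and Eomes. They were looked up in the 2 mammary tumour tables, each of which lists 19241 genes. Values were found for 8 of the 10, and Gzmk and Ifng were not analysed here. Every value is given per library, as reads per 1000000 reads of that library (RPM), and also relative to Cd3e, which encodes a chain of the T cell receptor complex.

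Cytotoxic T cells and NK cells kill target cells by releasing granules. Perforin, encoded by Prf1, opens the target membrane, and granzymes are serine proteases that enter the target and start its death. NK cells read activating and inhibitory receptors on their surface, whereas T cells read antigen through a receptor complex that holds the product of Cd3e and that NK cells lack. T-box factors, among them Eomes, and Runx factors are known regulators of cytotoxic genes.

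The tumours came from MMTV-PyMT mice, in which the promoter of the mouse mammary tumour virus drives the polyoma middle T antigen in mammary epithelium. All groups carried this transgene. The 4 groups were sedentary and physically active mice at week 12 and the same 2 groups at week 18, with 3 libraries each, which the labels call biological replicates. The labels do not give the form of activity or the cells from which RNA came beyond the tumour tissue. The tumours are 12 of the 21 libraries of the series, and the stem cell libraries were not used here. Each tumour library held 20838963 to 28973775 reads, so that 1 read stands for a very low level and most values below rest on fewer than 100 reads.

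The 8 genes lie on 6 chromosomes in the GENCODE M21 annotation of GRCm38, the assembly also called mm10, and each is annotated as protein coding. The granule genes are Gzma at chr13:113093825-113100981 on the minus strand, Gzmb at chr14:56258838-56262260 on the minus strand, Prf1 at chr10:61297833-61304680 on the plus strand and Nkg7 at chr7:43437073-43438249 on the plus strand. Klrk1 at chr6:129610323-129623864 on the minus strand and Klrd1 at chr6:129591782-129598775 on the plus strand are neighbours. Ncr1 lies at chr7:4337724-4345164 and Eomes at chr9:118478212-118486132, both on the plus strand. Gzmb belongs to a cluster of closely related granzymes, so its reads could have been shared with those relatives in counting, and how multiply mapped reads were treated is not given in the sources used here.

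Promoters of the 4 granule genes are shown because these genes parted most widely from each other in 1 library described below. The sequences are RefSeq sequences of GRCm38.p6, 5′ to 3′ on the strand of the gene, cut to the bases upstream of the start annotated in both RefSeq and GENCODE. Capitals mark TGTGGT or its reverse complement ACCACA, the core bound by Runx factors.
Gzma, chr13:113100982-113101231, minus strand: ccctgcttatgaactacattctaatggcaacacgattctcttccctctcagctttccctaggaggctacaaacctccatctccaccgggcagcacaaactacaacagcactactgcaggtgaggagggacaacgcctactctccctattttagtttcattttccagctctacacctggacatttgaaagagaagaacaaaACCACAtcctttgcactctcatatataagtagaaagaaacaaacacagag
Gzmb, chr14:56262335-56262584, minus strand: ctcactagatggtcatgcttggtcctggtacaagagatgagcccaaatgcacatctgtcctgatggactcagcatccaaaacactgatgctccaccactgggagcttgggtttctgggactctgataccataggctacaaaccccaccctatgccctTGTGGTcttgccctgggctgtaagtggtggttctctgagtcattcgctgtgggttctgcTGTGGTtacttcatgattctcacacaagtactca
Prf1, chr10:61297586-61297832, plus strand: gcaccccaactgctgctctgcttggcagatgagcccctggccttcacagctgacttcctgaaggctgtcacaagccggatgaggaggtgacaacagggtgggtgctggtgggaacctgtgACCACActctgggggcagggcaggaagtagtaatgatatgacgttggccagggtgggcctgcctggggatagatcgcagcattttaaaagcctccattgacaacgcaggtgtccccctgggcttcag
Nkg7, chr7:43436888-43437072, plus strand: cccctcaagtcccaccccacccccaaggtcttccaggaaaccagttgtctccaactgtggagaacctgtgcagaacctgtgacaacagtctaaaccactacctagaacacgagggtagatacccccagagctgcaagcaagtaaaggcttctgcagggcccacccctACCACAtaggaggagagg
In the 250 bases before the RefSeq start, the Runx core was found on either strand in 6 of the 7 genes that matched the table by symbol, Eomes being the one without it and Klrd1 the one not matched. Of all 32851 promoters in the table, 14% held it in a window of the same length. The T-box core GGTGTG or its reverse complement CACACC was found in 1 of the 7, Nkg7, outside the bases printed above, and in 16.3% of all promoters. The 2 cores share letters and can overlap. A match describes the letters only, and no binding was measured here.

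There were 2 libraries that stood apart and that bear on nearly every value below. In active week 12 replicate 3, Cd3e reached 884 reads, or 39.7 RPM, 42.1 times the median of the 11 other tumours. All 8 T cell genes, all 6 B cell genes, all 6 genes of lymph node stroma and follicles and all 4 adipocyte genes were highest of the 12 tumours there. Their folds over the median of the others ran from 25.5 to 70.7 for T cell genes, from 139 to 572 for B cell genes, from 23.9 to 453 for lymph node stroma and follicle genes and from 19.6 to 25.0 for adipocyte genes, while the epithelial genes Epcam, Krt8, Krt18 and Cdh1 stood at 0.36 to 0.54 of it and Krt19 at 1.93. Summed, the 5 epithelial genes were at 2090 to 5087 RPM over the 12 tumours. The summed level of the T cell genes was 8.78 to 11.6 RPM in sedentary and 11.1 to 416 in active week 12 tumours, and 6.68 to 14.3 and 9.01 to 13.5 in sedentary and active week 18 tumours, with no T cell gene at 0 in any library. For the B cell genes the sums were 3.96 to 6.71 and 2.29 to 818 at week 12 and 1.08 to 3.88 and 2.07 to 3.35 at week 18. For the lymph node stroma and follicle genes they were 4.75 to 14.7 and 1.75 to 664 at week 12 and 1.57 to 11.5 and 2.34 to 3.66 at week 18. B cell genes at 0 reads (up to 2 of 6) were seen in sedentary week 18 tumours, and stroma genes at 0 (up to 3 of 6) in tumours of every group, but none in this library. The part of these cell types in the levels of the cytotoxic genes was not tested.

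Active week 18 replicate 1 was at the other end. The 8 cytotoxic and NK genes had 28 reads there in all, against 168 to 1334 in the other 11 tumours, although the library held 24770206 reads. Cd3e had 8 reads, Trac 3, Cd8a 15 and Cd8b1 1, whereas Cd4 had 171 reads, at 6.90 RPM the second highest level of the 12 tumours. Of all 8 T cell genes, 5 were lowest of the 12 tumours there. The 8 ran from 6.47% to 316% of the median of the other 11. Cd247, a T cell gene also listed as a receptor adaptor, was not low. The 4 receptor adaptors stood at 84.1% to 116% of that median. The adipocyte genes stood at 1.35% to 4.88% of the median of the other tumours, and 4 of the 5 mast cell genes, Cma1, Cpa3, Mcpt4 and Tpsb2, had 5, 0, 7 and 6 reads. The other one, Kit, which mammary epithelial cells can also express, stood at 152% of that median. The macrophage genes stood at 70.1% to 150% of that median. In bulk tumour RNA, fewer cells of a type and less RNA per cell cannot be told apart, so these values give levels of RNA and not numbers of cells.

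**Figure D1:**
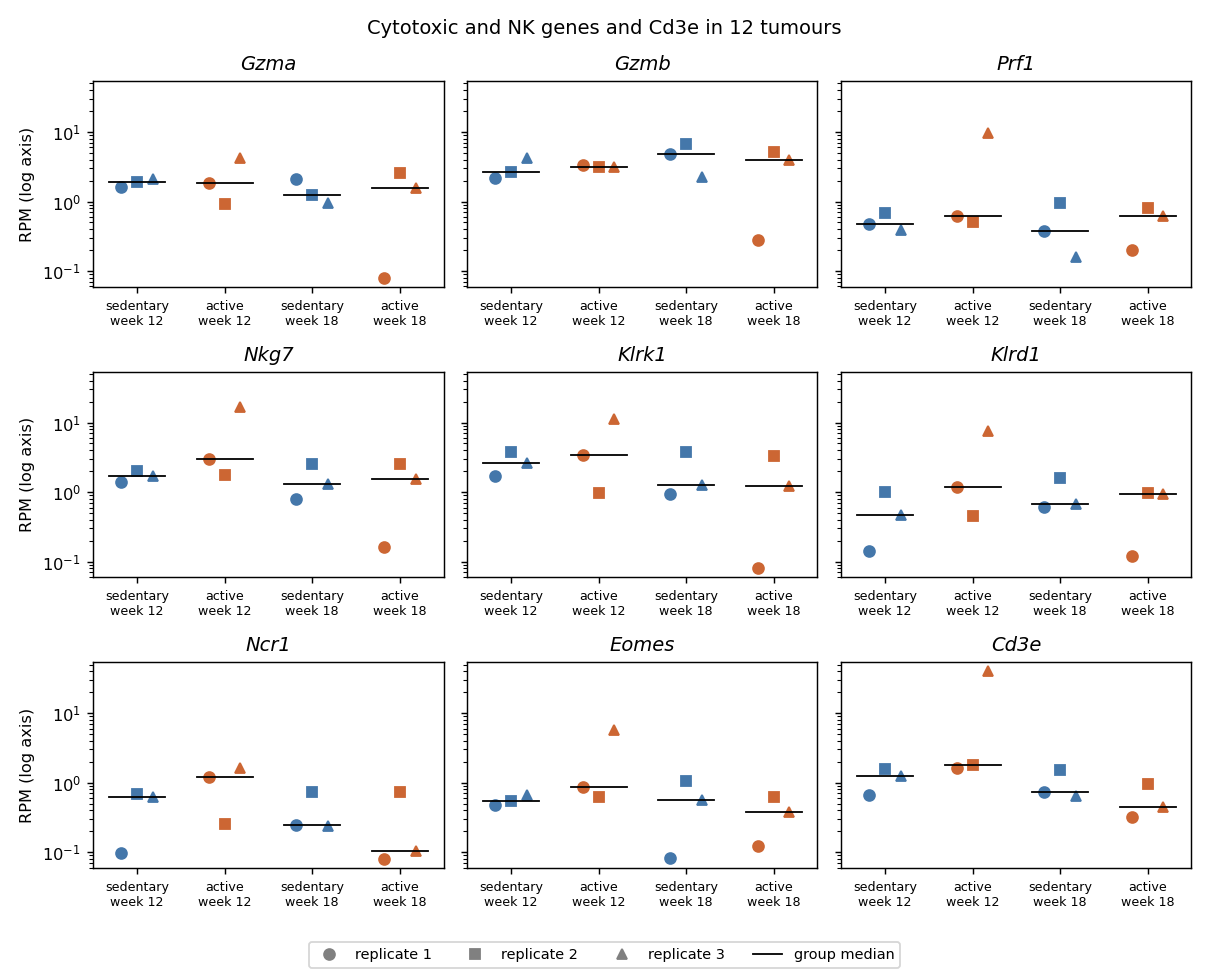
RPM on a log axis for the 8 cytotoxic and NK genes and Cd3e in the 4 groups, with 1 symbol per library (its shape giving the replicate number) and a line at the group median. Active week 12 replicate 3 is the highest tumour for 7 of the 8 genes and for Cd3e, and active week 18 replicate 1 is the lowest for 6 of the 8 and for Cd3e.

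Among the granule effectors, Gzma encodes granzyme A, a tryptase-like protease. In replicates 1, 2 and 3 it was at 1.63, 1.94 and 2.10 RPM in sedentary and 1.86, 0.918 and 4.18 in active tumours of week 12. At week 18 it was at 2.10, 1.24 and 0.96 in sedentary and 0.0807, 2.54 and 1.59 in active tumours. The active groups spanned the sedentary ones at both weeks, with the lowest and the highest tumours of the whole set among the active libraries. The low value rests on 2 reads, with an exact (Clopper-Pearson) 95% interval of 0.00978 to 0.292 RPM, so it lies under the other 11 values beyond counting error.

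Gzmb encodes granzyme B, which cleaves caspases and their substrates. It was at 2.16, 2.66 and 4.19 RPM in sedentary and 3.30, 3.17 and 3.19 in active week 12 tumours. At week 18 it was at 4.83, 6.67 and 2.28 in sedentary and 0.283, 5.11 and 3.90 in active tumours. It was the one gene of the 8 that was not highest in active week 12 replicate 3, where it ranked seventh of 12, and the 3 active week 12 tumours lay closer together than those of any other group, at 3.22 ± 0.0708 RPM (SD, n = 3).

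Prf1, the pore-forming protein, behaved otherwise. It was at 0.48, 0.676 and 0.388 RPM in sedentary and 0.621, 0.501 and 9.61 in active week 12 tumours. At week 18 it was at 0.371, 0.94 and 0.16 in sedentary and 0.202, 0.797 and 0.621 in active tumours. The other 11 tumours held 4 to 22 reads of Prf1 each, and active week 12 replicate 3 held 214, which is 19.2 times their median and 10.2 times the next highest tumour. Its interval there was 8.36 to 11.0 RPM.

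Nkg7 encodes a granule membrane protein of cytotoxic cells. Its levels were 1.39, 1.98 and 1.71 RPM in sedentary and 2.99, 1.75 and 16.8 in active week 12 tumours. At week 18 they were 0.784, 2.56 and 1.32 in sedentary and 0.161, 2.57 and 1.52 in active tumours. At both weeks the highest sedentary tumour was above the lowest active one, so the groups overlapped.

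Of the receptors, Klrk1 encodes NKG2D, an activating receptor for stress-induced ligands that NK cells and CD8 T cells carry. It was at 1.68, 3.74 and 2.64 RPM in sedentary and 3.42, 0.959 and 11.3 in active week 12 tumours. At week 18 it was at 0.949, 3.72 and 1.28 in sedentary and 0.0807, 3.33 and 1.24 in active tumours. The span between its lowest and highest tumour, 140-fold, was the widest of the 8 genes, though the lowest value rests on 2 reads.

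Klrd1 encodes CD94, the partner of the NKG2 receptors that bind the nonclassical MHC molecule Qa-1. It was at 0.144, 0.991 and 0.466 RPM in sedentary and 1.16, 0.459 and 7.50 in active week 12 tumours. Its week 18 levels were 0.619, 1.58 and 0.68 in sedentary and 0.121, 0.978 and 0.932 in active tumours. The lowest sedentary week 12 tumour held 3 reads, as did active week 18 replicate 1.

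Ncr1 encodes NKp46, a receptor found mainly on NK cells and related innate lymphoid cells rather than on T cells. It was at 0.096, 0.676 and 0.621 RPM in sedentary and 1.20, 0.25 and 1.62 in active week 12 tumours. At week 18 it was at 0.248, 0.726 and 0.24 in sedentary and 0.0807, 0.725 and 0.104 in active tumours. Its top tumour held 36 reads, fewer than the top tumour of any other gene of the 8, and exceeded the next by 1.34-fold, the smallest such gap among the 7 genes highest in active week 12 replicate 3. The intervals of that top tumour, 1.13 to 2.24 RPM, include the level of the next one.

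Eomes encodes the T-box factor eomesodermin, which is needed for NK cell maturation and for memory CD8 T cells. It was at 0.48, 0.54 and 0.66 RPM in sedentary and 0.854, 0.626 and 5.70 in active week 12 tumours. At week 18 it was at 0.0825, 1.07 and 0.56 in sedentary and 0.121, 0.616 and 0.38 in active tumours. The lowest tumour, sedentary week 18 replicate 1, held 2 reads. Cd3e itself was at 0.672, 1.58 and 1.24 RPM in sedentary and 1.63, 1.79 and 39.7 in active week 12 tumours, so its groups did not overlap at that week. That gap lies within counting error. The lowest active tumour held 42 reads (interval 1.18 to 2.20 RPM) and the highest sedentary one 35 (1.10 to 2.19). The week 18 levels of Cd3e were 0.743, 1.54 and 0.64 in sedentary and 0.323, 0.942 and 0.449 in active tumours, which overlapped.

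Divided by exon length as well, levels can be compared between genes. On this scale, RPM per kilobase of exon (RPKM), the medians over 12 tumours were highest for Gzmb at 2.26, Nkg7 at 1.96 and Gzma at 1.74. Klrd1 followed at 0.834, Klrk1 at 0.629, Ncr1 at 0.283, Prf1 at 0.217 and Eomes at 0.159, with Cd3e between Klrd1 and Klrk1 at 0.747. Every pair of neighbours in this order overlapped in range over the tumours: Gzmb ran from 0.197 to 4.64, Nkg7 from 0.183 to 19.1 and Eomes from 0.0223 to 1.54. The granzymes and Nkg7 thus had higher per-length levels than Prf1 at the median, whereas in active week 12 replicate 3 the per-length level of Prf1, 3.72, was above that of Gzmb, 2.22.

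**Figure D2:**
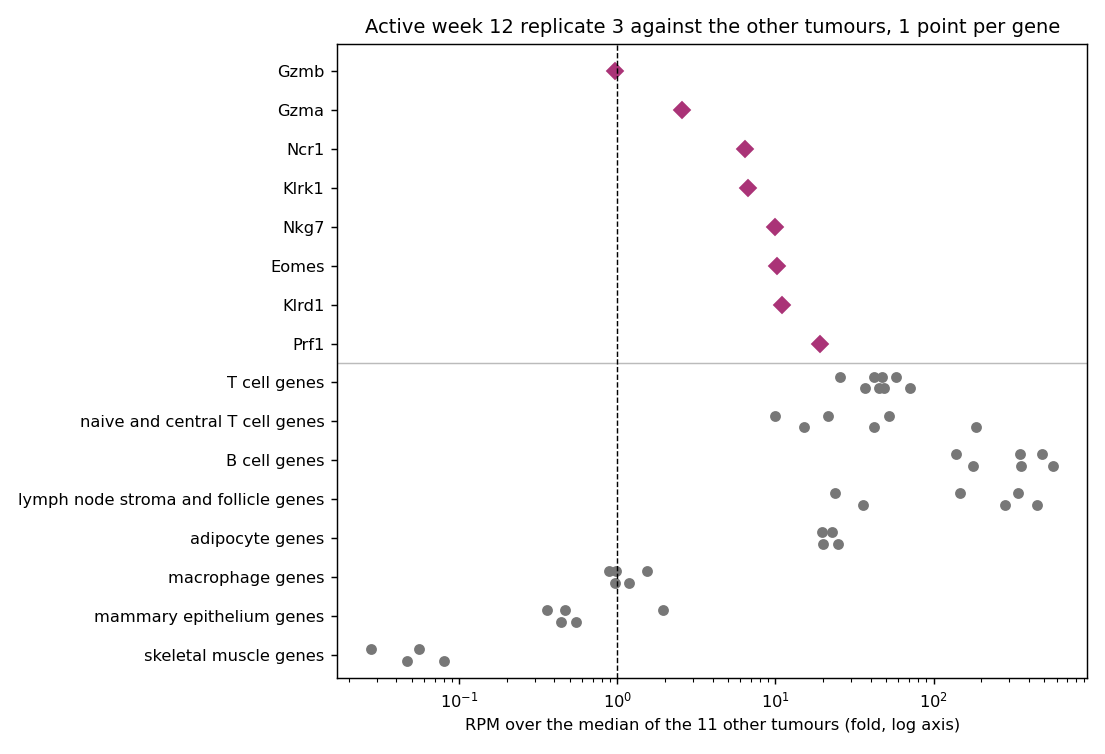
RPM in active week 12 replicate 3 as a fold over the median of the 11 other tumours on a log axis, with 1 point per gene, the 8 cytotoxic and NK genes by name above the line and lists of cell type genes below it. Gzmb sits at 0.97 and Gzma at 2.56, the other 6 genes run from 6.46 to 19.2, and all 8 T cell genes lie above them at 25.5 or more.

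The comparison at week 12 asked whether activity went with higher or lower levels of these genes. None of the 8 passed an adjusted p-value of 0.05 with limma on log2(normalized count + 1), with Benjamini-Hochberg adjustment over 19162 genes, of which 0.517% were called. None of the 8 had an unadjusted p-value under 0.05 with limma, against 4.09% of all genes. With edgeR and DESeq2 on recovered reads 0 were called as well, with 0 of 8 and 3 of 7 at an unadjusted p-value under 0.05, beside 4.14% and 6.91% of all genes. All 8 estimates were positive, from 0.05 for Gzma to 1.86 for Klrd1, with a median of 1.21 beside 0.01 over all genes tested. No gene of the 8 had groups that did not overlap, against 9.13% of all genes. Skeletal muscle genes moved with the groups at this week: Acta1, Ckm, Myh4 and Mylpf together were at 1573 to 3378 RPM in sedentary and 8.34 to 36.8 in active tumours, and 4 of 4 were called lower by limma (Benjamini-Hochberg adjusted). The part of muscle tissue in the values of the 8 genes was not tested.

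Klrd1 had the largest estimate, 1.86 with 1.17 as its standard error (limma adjusted p-value 0.970). Prf1 followed at 1.49 (standard error 1.18), Nkg7 at 1.40 (0.86), Eomes at 1.35 (0.86) and Ncr1 at 1.08 (0.93), Klrk1 stood at 0.40 (0.91), and Gzmb and Gzma stood at 0.16 (0.27) and 0.05 (0.55). Without active replicate 3 the estimates of Prf1, Nkg7, Eomes and Klrd1 became 0.14, 0.44, 0.37 and 0.75, those of Klrk1 and Gzma became -0.48 and -0.51, and that of Gzmb was still 0.16. The median then was 0.26, and it was 0.78 to 1.88 in the fits without another library. Cd3e had an estimate of 2.13 with all libraries and 0.62 without that one, and was called in neither fit. In the authors' deposited table the fold changes of Nkg7, Eomes and Klrd1 were 2.11, 2.19 and 2.58 on the log2 scale with unadjusted p-values of 0.0192, 0.0300 and 0.0381 and adjusted ones of 0.584, 0.669 and 0.723. That table gives a p-value of 1 for Prf1 and Cd3e, whose fold changes there are 2.89 and 3.70.

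At week 18 the same question gave no call among the 8 genes. With limma 0 of 18939 genes were called, or 0.0%, and 1131 had an unadjusted p-value under 0.05, none of them among the 8. The count among the 8 was also 0 with DESeq2 and, for the 7 genes it tested, with edgeR. Neither tool gave one of them an unadjusted p-value under 0.05, against 8.36% (DESeq2) and 6.0% (edgeR) of all genes. Of the 8 estimates 7 were negative and that of Prf1 was positive, with a median of -0.68 beside 0.01 over all genes. Groups were separate at 13.6% of all genes and at none of the 8. The 4 adipocyte genes had a summed level of 20.5 to 370 RPM in sedentary and 11.9 to 56.7 in active tumours at week 18, with 4 of 4 estimates negative and none called. The 4 neutrophil genes S100a8, S100a9, Csf3r and Cxcr2 were at 3.63 to 7.14 RPM in sum in sedentary and 6.78 to 11.4 in active tumours, with a median estimate of 1.54 and 3 of 4 at an unadjusted p-value under 0.05, but none called by limma. The part of either cell type in the values of the 8 genes was not tested.

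Gzmb had the lowest estimate at week 18, -1.10, with 1.14 as its standard error (limma adjusted p-value 0.847). Those of Klrk1, Gzma, Klrd1 and Ncr1 were -1.0, -0.74, -0.68 and -0.68, those of Nkg7 and Eomes were -0.54 and -0.23, and that of Prf1 was 0.32. Without active replicate 1, 6 of these signs turned. Then 7 of the 8 estimates were positive, from 0.15 for Gzmb to 0.84 for Prf1, Ncr1 stood at -0.20, and the median was 0.34. No other library turned the median when left out. It was -1.37 without active replicate 2, with 8 of 8 negative, and -1.02 without active replicate 3, with 7 of 8 negative. Nearest to 0 among those fits was -0.24, without sedentary replicate 2. Other libraries turned signs too: the estimate of Prf1 was -0.22 without sedentary replicate 3 and -0.01 without active replicate 2, and that of Eomes was 0.44 and 0.02 without sedentary replicates 2 and 3. Cd3e went from -0.68 to -0.39 without active replicate 1.

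**Figure D3:**
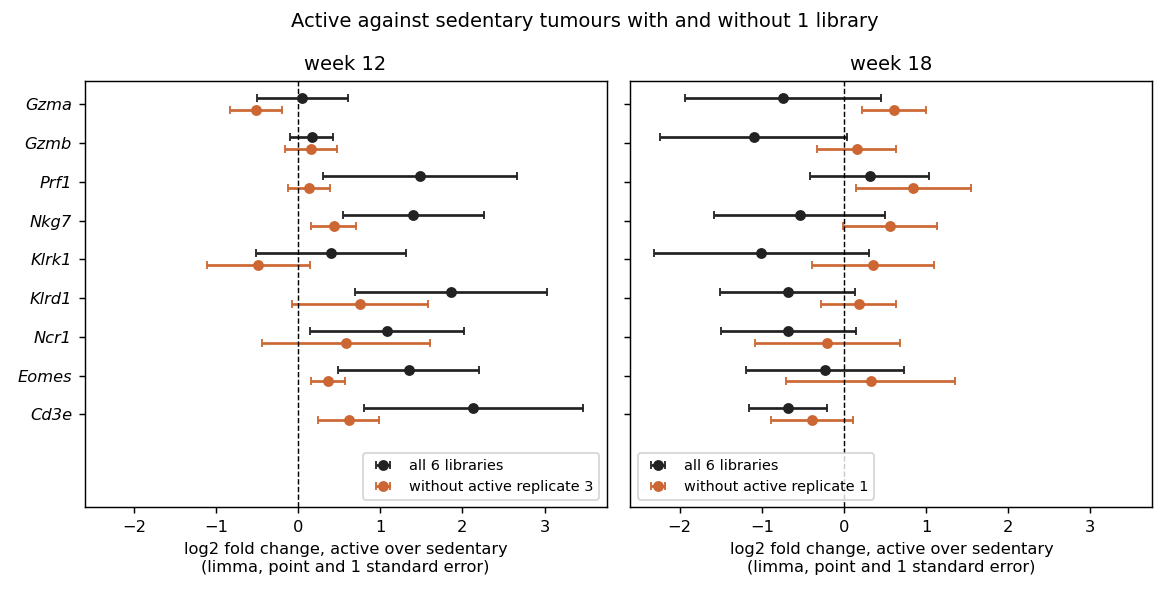
Estimates of log2 fold change, active over sedentary, for 8 cytotoxic and NK genes and Cd3e at week 12 (left) and week 18 (right) from limma, with bars of 1 standard error, for all 6 libraries and without the library that stood apart. At week 12 the median of the 8 moves from 1.21 to 0.26, and at week 18 from -0.68 to 0.34. Fits without another library, not drawn, had medians of 0.78 to 1.88 at week 12 and -1.37 to -0.24 at week 18.

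The change in the effect of activity from one week to the other was tested over 12 tumours as an interaction term, where a negative value means a smaller active-minus-sedentary difference at week 18 than at week 12. None of the 8 genes was called by limma or edgeR, and none of the 7 that DESeq2 tested, with 0, 0 and 1 at an unadjusted p-value under 0.05 (6.33%, 8.42% and 10.6% of all genes), and limma called 0.0104% of 19241 genes. All 8 estimates were negative, from -2.55 for Klrd1 to -0.79 for Gzma, with a median of -1.49 beside -0.02 over all genes. The standard error for Klrd1 was 1.53 (limma adjusted p-value 0.770). The median became -0.78 without active week 12 replicate 3 and -0.74 without active week 18 replicate 1. In the fits without another library it was -2.22 to -0.93. With both left out, an alternative chosen after seeing the data, 4 estimates were positive and 4 negative, from -0.78 for Ncr1 to 1.12 for Gzma, with a median of 0.06.

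Between weeks, sedentary tumours gave 0 of 8 calls with edgeR's quasi-likelihood test on recovered reads, which called 0.0% of 17122 genes. None of the 8 had an unadjusted p-value under 0.05 there, with DESeq2 or with limma on RPM. Over all genes the shares were 3.34% with edgeR, 4.41% with DESeq2 and 3.42% with limma on RPM. The log2 fold changes from week 12 to week 18 ran from -0.44 for Klrk1 to 0.85 for Klrd1 with a median of -0.10, and edgeR gives no standard error for them. In active tumours edgeR also called 0 of the 8 and 0.0% of 17122 genes, although 3824 genes, or 22.3%, had an unadjusted p-value under 0.05, among them Eomes, Prf1 and Nkg7. The log2 fold changes of these 3 were -2.64, -2.69 and -2.32 with edgeR adjusted p-values of 0.176, 0.194 and 0.201, and that of Gzmb was -0.02. DESeq2 had 3 of 7 and limma on RPM 0 of 8 at an unadjusted p-value under 0.05, with none of them called. Over all genes these shares were 26.0% and 18.8%, and DESeq2 called 1681 of 18201 genes. Without active week 12 replicate 3 the estimates of Eomes, Prf1 and Nkg7 became -0.92, 0.01 and -0.69. None of the 8 had an unadjusted p-value under 0.05 in that edgeR fit, against 2108 of 17523 genes.

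Relative to Cd3e, all 8 genes were lowest of the 6 week 12 tumours in active replicate 3, the library in which 7 of them had the highest levels. Gzmb had 3.21, 1.69 and 3.38 reads per read of Cd3e in sedentary and 2.02, 1.77 and 0.0803 in active week 12 tumours. Gzma had 2.43, 1.23 and 1.69 in sedentary and 1.14, 0.512 and 0.105 in active ones. Every active value of Gzma lay under every sedentary one. Klrk1 was the other gene whose ratios did not overlap at week 12, with 2.5, 2.37 and 2.12 in sedentary and 2.10, 0.535 and 0.284 in active tumours, the highest active tumour lying just under the lowest sedentary one. Those 2 of 8 genes compare with 40.6% of all 19161 genes whose ratios to Cd3e did not overlap at week 12, where Cd3e itself did not overlap. The count is therefore read against that share and not as particular to these genes.

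Prf1 kept closest to Cd3e over the 12 tumours. It had 0.714, 0.429 and 0.312 reads per Cd3e read in sedentary and 0.381, 0.279 and 0.242 in active week 12 tumours, so that the library with 19.2 times the usual Prf1 level lay next to its group in the ratio. Nkg7 had 2.07, 1.26 and 1.38 in sedentary and 1.83, 0.977 and 0.424 in active tumours. Klrd1 had 0.214, 0.629 and 0.375 against 0.714, 0.256 and 0.189. Ncr1, the NK cell receptor, had 0.143, 0.429 and 0.50 in sedentary and 0.738, 0.14 and 0.0407 in active tumours, and Eomes had 0.714, 0.343 and 0.531 against 0.524, 0.349 and 0.144. The groups overlapped for each of these 5 genes.

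At week 18 the ratios of Gzmb were 6.50, 4.33 and 3.56 in sedentary and 0.875, 5.42 and 8.69 in active tumours. Those of Gzma were 2.83, 0.806 and 1.5 against 0.25, 2.69 and 3.54. For both granzymes active replicate 1 was lowest and active replicate 3 highest of the 6 tumours. Prf1 had ratios of 0.50, 0.611 and 0.25 in sedentary and 0.625, 0.846 and 1.38 in active tumours, and was the only one of the 8 whose ratios did not overlap at week 18, against 4.25% of 18938 genes. The counts behind these ratios are low, since Prf1 had 4 to 22 reads and Cd3e 8 to 36 reads in these tumours. Nkg7, Klrk1, Klrd1, Ncr1 and Eomes overlapped between the groups, with ratios from 0.111 for Eomes in sedentary replicate 1 to 3.54 for Klrk1 in active replicate 2.

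**Figure D4:**
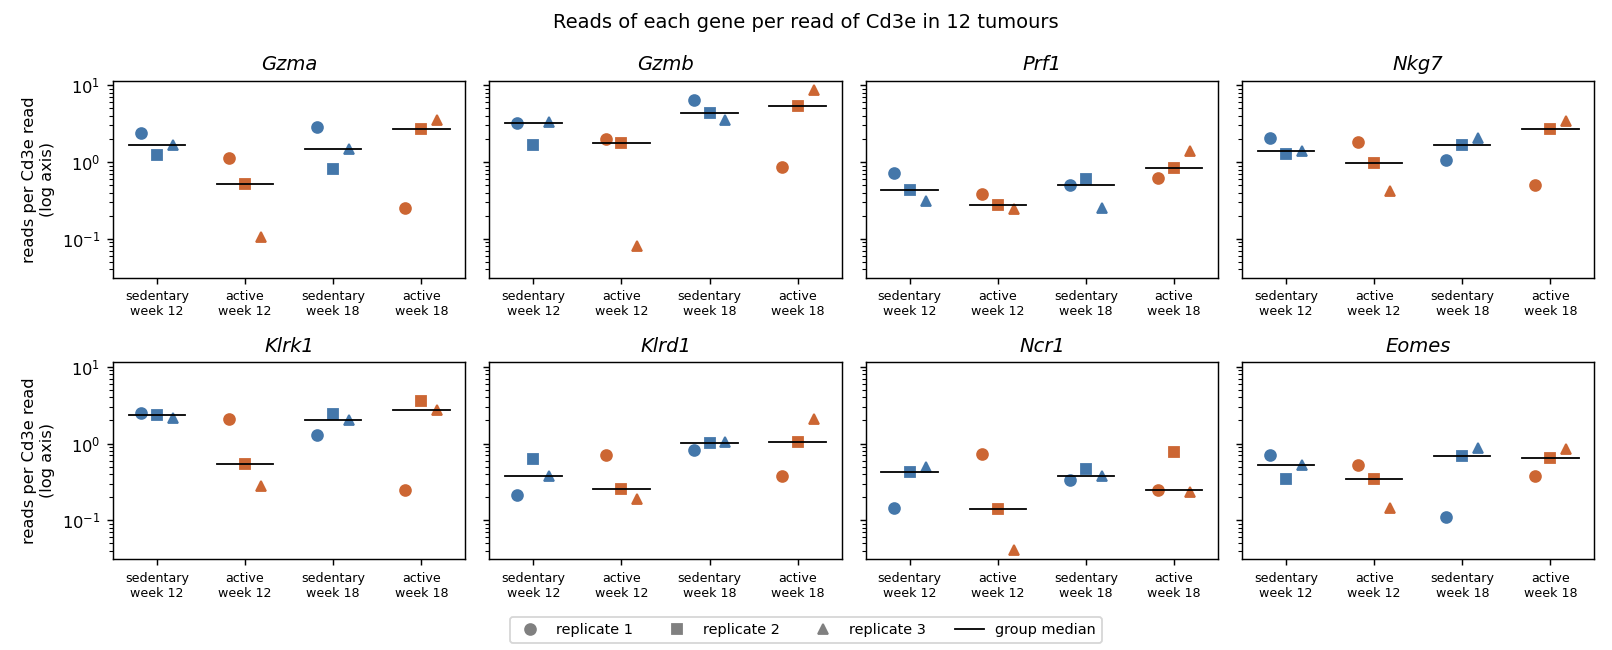
Reads of each of the 8 genes per read of Cd3e on a log axis in the 4 groups, with 1 symbol per library and a line at the group median. In active week 12 replicate 3, drawn as a triangle, the ratios of Gzmb and Gzma are 0.0803 and 0.105, whereas that of Prf1 is 0.242, next to 0.279 and 0.381 in the other active week 12 tumours.

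Tested with limma on log2 ratios to Cd3e, 0 of the 8 genes were called at week 12, at week 18 or in the interaction. None of the 8 had an unadjusted p-value under 0.05, against 4.38%, 5.44% and 12.3% of all genes. Over all genes 0.684%, 0.312% and 0.982% were called in these 3 fits, in which every gene carries the change of Cd3e. With the replicate number as a block, 0 genes in place of 59 were called relative to Cd3e at week 18, where same-numbered tumours deviated together. The share of all genes at an unadjusted limma p-value under 0.05 rose from 5.44% to 31.3% with that block. The medians over all genes were -2.12 at week 12, 0.69 at week 18 and 2.79 for the interaction, and the 8 genes had medians of -0.92, 0.00 and 1.32. At week 12 the estimates ran from -2.08 for Gzma and -1.97 for Gzmb to -0.27 for Klrd1, all with a standard error of 1.59, since limma's moderated variance was the same for all 8. The lowest adjusted p-value among the 8 at week 12 was 0.317. At week 18 they ran from -0.42 for Gzmb to 1.00 for Prf1, with a standard error of 0.79. Without active week 12 replicate 3 the week 12 estimates of Gzma, Klrk1 and Gzmb were -1.13, -1.10 and -0.46, beside a median of -0.61 over all genes. The week 18 median of the 8 was 0.72 without active replicate 1, with 8 of 8 positive, beside 0.40 over all genes. Relative to Cd3d, Cd3e and Cd3g together it was -0.48, and relative to Cd8a -0.61, with 7 of 8 negative in each. The medians over all genes were 0.21 and 0.08 there.

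The ratio also shows how far these genes followed Cd3e from tumour to tumour. Over the 12 tumours the standard deviation of log2(normalized count + 1) was 1.08 to 1.59 for the 8 genes and 1.71 for Cd3e, and for 6 of the 8 it was smaller after Cd3e was subtracted. Gzma and Gzmb were the exceptions, going from 1.25 to 1.46 and from 1.08 to 1.75, whereas Prf1 went from 1.40 to 0.74. Without active week 12 replicate 3 all 8 were smaller relative to Cd3e, although Prf1 stood at 0.69 either way. With both libraries left out only Klrk1, Ncr1 and Eomes were. These are descriptions over tumours of 4 groups and carry no test.

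Genes of the same pathways were read from lists of general knowledge. In the 11 lists 0 genes were called at week 12, at week 18 or in the interaction with limma, with Benjamini-Hochberg adjustment over all genes. Over all genes 0.517%, 0.0% and 0.0104% were called, so this count is not particular to these lists. Of the other granzymes, 4 of 7 had values, with a median of -0.03 at week 12 and 0.93 at week 18. Gzmm, granzyme M of NK cells, had an estimate of 1.37 (standard error 0.73, limma adjusted p-value 0.824) at week 18, and Gzmc had -1.04. Gzmd and Gzme had 0 reads in active week 12 replicate 3 and also in active week 18 replicate 1. Without these libraries the medians of the other granzymes were -0.40 at week 12 and 1.62 at week 18.

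The 9 genes of granule packing and release had medians of 0.09 and 0.22 at weeks 12 and 18. Srgn, the proteoglycan serglycin that packs granzymes, had an estimate of 0.75 at week 12, and Rab27a, which docks granules, had -0.86 at week 18. The 4 granzyme inhibitors of the serpin family had positive estimates in 4 of 4 at week 12, with a median of 0.87, and 0.49 without active replicate 3. Serpinb9, the inhibitor of granzyme B, stood at 0.74 (standard error 0.43, limma adjusted p-value 0.970). Of 8 death ligands and effector cytokines 5 were positive at each week. Xcl1, a chemokine of NK and CD8 T cells, stood at 1.55 at week 12, and Fasl, the ligand of the death receptor Fas, at 1.10. Ccl4 stood at 1.01 at week 18 and had 0 reads in active week 12 replicate 3.

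Of the estimates of 16 other NK receptors 14 were positive at week 12 with a median of 0.63, or 0.23 without active replicate 3, and 12 were negative at week 18 with a median of -0.55, or -0.02 without active replicate 1. In that library 8 of the 16 were lowest of the 12 tumours, but their summed level was 93.8 RPM, of which Itga2, an integrin chain also found outside NK cells, gave 67.1. Cd160 had an unadjusted p-value of 0.0353 at week 18 and 0.0146 in the interaction, with estimates of -1.04 and -2.63 and limma adjusted p-values of 0.824 and 0.655. Klrb1c, which encodes NK1.1, stood at -1.99 in the interaction. In the Ly49 family, inhibitory and activating receptors for classical MHC class I, 5 of 6 were positive at week 12 and 5 of 6 negative at week 18, with medians of 0.15 and -1.05. These medians became -0.22 without active week 12 replicate 3 and -0.24 without active week 18 replicate 1. Klra7 stood at 1.16 at week 12 and Klra8 at -1.48 at week 18, with unadjusted p-values of 0.0456 and 0.0455 and limma adjusted p-values of 0.970 and 0.824. These related genes share sequence, so their single values are uncertain, and Klra1, Klra4 and Klra5 had 0 reads in active week 18 replicate 1.

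Of 4 receptor adaptors 3 had positive estimates at week 12 and 4 at week 18, with medians of 0.95 and 0.24. These became 0.32 without active week 12 replicate 3 and 0.31 without active week 18 replicate 1. Hcst, the adaptor through which the product of Klrk1 signals, stood at 1.68 at week 12 and 0.61 at week 18. Among the 5 ligands with values, all 5 estimates were negative at week 12, with a median of -0.58, and 3 of 5 positive at week 18. The week 12 median was -0.82 without active replicate 3. At week 18 it went from 0.06 to -0.70 without active replicate 1. Raet1d, a ligand of NKG2D, stood at -1.32 and 0.77 with limma adjusted p-values of 0.970 and 0.824. These ligand genes were not among the highest in active week 12 replicate 3, where none of the 5 ranked first.

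Of 10 transcription factors 9 were positive at week 12, with a median of 0.68, or 0.09 without active replicate 3. Tbx21, the T-box factor T-bet and partner of Eomes, stood at 1.20 (standard error 0.70) and Stat4 at 1.84. At week 18 Prdm1, which encodes Blimp-1, stood at -1.17 with 0.0201 as its unadjusted p-value (limma adjusted p-value 0.824). All 12 genes of the IL-2, IL-12, IL-15 and IL-18 axis were positive at week 12, with a median of 0.83, or 0.23 without active replicate 3. Il12rb2, a chain of the IL-12 receptor, stood at 1.49 with 0.0192 as its unadjusted p-value (limma adjusted p-value 0.913). Of 16 genes of the interferon gamma receptor and its targets 10 were positive at week 12 and 15 at week 18, with medians of 0.21 and 0.31. These became -0.03 without active week 12 replicate 3 and 0.58 without active week 18 replicate 1. Cxcl9, a target that draws T cells, stood at 1.37 at week 12 and Gbp3 at 0.86 at week 18.

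Genes most like each of the 8 were found by the root mean square difference of centred log2(RPM + 1) over the 12 tumours, among 14799 genes. For Prf1 they were Gimap7 and Gm37691, at 0.183 and 0.188. For Nkg7 they were 9930111J21Rik2 and Flt3 (0.194 and 0.218), for Klrd1 Jaml and AB124611 (0.217 and 0.219), and for Eomes Snx20 and Ptk2b (0.130 and 0.139). Gzma was nearest to Thrb and Vps13c (0.219 and 0.233), Gzmb to Zfp966 and Scn8a (0.271 and 0.279), Klrk1 to Hdgfl3 and Dipk1a (0.280 and 0.302) and Ncr1 to Tlr7 and Hps3 (0.155 and 0.161). For Cd3e, among 14798 genes, they were Rasal3 and H2-Eb2 at 0.189 and 0.201. Without active week 12 replicate 3 the nearest genes changed for every gene but Gzmb, for example to Hfe and Vwa5a for Eomes (0.0825 and 0.0867). These distances describe the same 12 or 11 libraries from which the genes were read, and carry no test.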

How the data were processed

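RNA of 12 mammary tumours, extracted with TRIzol and sequenced from stranded mRNA libraries per the labels' protocols, was analysed from 2 tables. The values deposited are a normalized signal per gene, and whole reads were recovered for 100% of them at a tolerance of 0.01 read, so the authors had scaled gene counts by 1 factor per library. In sedentary week 18 replicate 3 the value of 1 read, 0.991, is too close to 1 for a formal check. The authors' deposited tables also give a log2 fold change, the same change as a linear fold, a p-value, a −log10 of the adjusted p-value and a test statistic, a score whose tool is not given in the sources used here. mm10 is named in the submitters' processing notes; the aligner and counter are not given in the sources used here.

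The main test was limma 3.58.1 in R 4.3.3 on log2(value + 1), which understates changes of low genes, applied to genes whose mean reached 1 in at least 1 of the groups, with Benjamini-Hochberg adjustment over all of them and a threshold of 0.05. Ratios to Cd3e were tested the same way on differences of log2 values. Weeks were compared with edgeR 4.0.16 on recovered reads of all 12 tumours with TMM scaling, and DESeq2 1.42.0 was an alternative. In a simulation in which 200 genes were shifted by 3 (log2), limma recovered 69% among 19105 genes for week 12 and 66% among 18882 genes for week 18, with 11 and 9 other calls. The shifted genes were drawn only from genes above a minimum mean of reads. Ncr1 did not reach that mean at either week, nor did Prf1 and Eomes at week 18. Recovery of genes that low, or of smaller shifts, was not measured. Same-numbered tumours deviated together at week 18 (correlations of 0.163, 0.159 and 0.139 across genes), above the limit of 0.1 set by rule, and in no other comparison. Differently numbered tumours were not compared and the labels name no pairing, so these correlations do not show that the tumours were paired.

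The genes, the lists and the library left out were chosen with earlier results of these data known. Named were the 8 genes and Cd3e, from each pathway list the 2 genes with the smallest p-values per comparison where none was called (only some are printed), and for each gene the 2 nearest in pattern among genes with a mean of at least 1 RPM. Genes named for libraries that stood apart were marker genes chosen after their values were seen.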

Additional observations from a re-analysis of the deposited data

How the results depend on the processing

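No alternative called any of the 8 genes in any of the 8 comparisons, so each count of 0 was the same under all of them. These were pseudocounts of 0.1 and 5, other filters and scalings, edgeR, DESeq2, ratios to the CD3 chains together or to Cd8a, and fits without 1 library. The lowest adjusted p-value among the 8 genes over all of these was 0.0712, from DESeq2 for active tumours between the weeks. With the replicate block 0 genes of the 8 were called too, in each of the 8 comparisons. Over all genes it left 0 of 59 calls relative to Cd3e at week 18, where same-numbered tumours deviated together. The share of all genes at an unadjusted limma p-value under 0.05 rose there from 5.44% to 31.3%. Depth limits every estimate here, since most rest on fewer than 100 reads, and the reads carry no molecular identifiers, so intervals cover counting error only.

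Estimates that were not called did change sign, and the cause was not tested. Over fits without 1 library the week 12 estimates that did so were those of Gzma (-0.51 to 0.56), Gzmb (-0.02 to 0.43) and Klrk1 (-0.48 to 1.27). At week 18 they were those of Gzma (-1.56 to 0.61), Gzmb (-1.80 to 0.15), Prf1 (-0.22 to 0.90), Nkg7 (-1.25 to 0.56), Klrk1 (-2.01 to 0.35), Klrd1 (-1.12 to 0.18) and Eomes (-1.15 to 0.44). In the interaction they were those of Gzma (-1.61 to 0.56) and Prf1 (-1.90 to 0.18). Relative to Cd3e they were that of Klrd1 (-0.82 to 0.14) at week 12 and at week 18 those of Gzma (-0.67 to 1.00), Gzmb (-1.05 to 0.54), Nkg7 (-0.32 to 0.94), Klrk1 (-0.95 to 0.74), Klrd1 (-0.52 to 0.57), Ncr1 (-0.44 to 0.27) and Eomes (-0.31 to 0.92). In the interaction relative to Cd3e 8 of 8 were positive, but 1 was negative without sedentary week 12 replicate 2 (-0.07), active week 12 replicate 3 (-0.14) or active week 18 replicate 3 (-0.25) and with the CD3 chains (-0.50), and 2 with Cd8a (lowest -0.74). With both libraries that stood apart left out, the interaction estimates of Gzma, Prf1, Nkg7 and Klrk1 were 1.12, 0.71, 0.12 and 0.84. For Gzma at week 18 edgeR gave 0.03 and DESeq2 0.04. With the 3 CD3 chains as the divisor, Klrd1 stood at 0.01 at week 12, and Nkg7, Ncr1 and Eomes at -0.34, -0.48 and -0.03 at week 18. With Cd8a these were 0.13, and -0.47, -0.61 and -0.16. A pseudocount of 5 gave 0.12 for Gzma and 0.08 for Klrd1 relative to Cd3e at week 18, and 0.1 gave -0.12 for Ncr1. Counts over all genes also moved by over 1.5 times: DESeq2 called 208 at week 12, 52 at week 18, 172 in the interaction, 79 in sedentary and 1681 in active tumours between the weeks, and limma on RPM called 60 in sedentary tumours. A pseudocount of 0.1 gave 5 and no filter 1 at week 18, and in the interaction a pseudocount of 5 gave 4 and edgeR 0. Relative to Cd3e, a pseudocount of 0.1 gave 0 at week 18, the CD3 chains gave 17 there and 111 in the interaction, Cd8a gave 78, 5 and 68 at week 12, week 18 and in the interaction, and a pseudocount of 5 and the block gave 123 and 286 in the interaction. The replicate block gave 0 at week 12 and 69 in the interaction, and leaving out both libraries gave 9 there. Without 1 library, 9 to 71 genes in all were called at week 12, 0 to 5 at week 18 and 0 to 23 in the interaction, where the most came without active week 18 replicate 1. In active tumours between the weeks 559 were called without active week 12 replicate 2. Relative to Cd3e the counts were 31 to 461 at week 12, 20 to 288 at week 18 and 117 to 501 in the interaction, with the most without active week 12 replicate 3, active week 18 replicate 2 and active week 12 replicate 1.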

Other observations

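In active week 18 replicate 1, 5 of 8 T cell genes and 4 of 6 Ly49 receptors were lowest of the 12 tumours, as were 6 of the 8 cytotoxic and NK genes, but some genes of lymphocytes were high. Lef1 and Tcf7, T cell factors that epithelial cells can also express, were at 10.3 and 28.4 RPM there, the highest of the 11 tumours other than active week 12 replicate 3. In their list of 6 naive and central T cell genes, 2 genes were lowest of the 12 tumours there, down to 10.2% of the median of the others. Il12rb1, a chain of the IL-12 receptor, was at 3.43 RPM, 680% of the median of the other tumours. Its list of 12 cytokine axis genes went the other way, with 6 genes lowest there and a list median of 50.6%. Ulbp1, a ligand of NKG2D, was at 34.0 RPM there, 492% of that median.

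In active week 12 replicate 3, Cxcr2, a neutrophil receptor, was 64.6 times the median of the other tumours, whereas S100a8 of neutrophils was 0.79 times. These were the highest and lowest folds of the 4 neutrophil genes with values. Their median fold was 2.98, and 2 of the 4 were highest of the 12 tumours there. Among genes of the interferon gamma response, Gbp4 was 11.0 times and Cxcl9 5.75 times that median, but Irgm1 was 0.66 times and Igtp 0.99 times. The chemokine Ccl5 was at 27.2 times and Ccl4 had 0 reads, for which a limit of 3 reads, or 0.135 RPM, was taken by rule rather than from an exact interval. The genes named here and for active week 18 replicate 1 were chosen after their values were seen.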
